A study of Mus musculus with 27 samples.

Results

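The Wnt ligands, their Frizzled receptors and the secreted inhibitors of the Sfrp and Dkk families were followed across 27 mouse hearts. Members were taken by gene symbol, as every row of the count table named Wnt, Fzd, Sfrp or Dkk with its number. This gave 37 of the 57683 features: 19 Wnt ligands, 10 Frizzled receptors, 4 Sfrp genes and 4 Dkk genes. All hearts came from C57BL/6J mice, an inbred laboratory strain, and no group carried a transgene or a targeted allele, as far as the labels say. The embryonic group held 7 whole hearts from day E13.5 of development, with sex labelled unknown. The adult groups held ventricular apexes, the tips of the ventricles: 6 unoperated mice aged 6 weeks and 6 aged 16 weeks, 4 mice aged 12 weeks with 4 weeks of transverse aortic constriction (TAC), and 4 sham-operated mice aged 12 weeks. By label, 19 adult mice were male and 1 TAC mouse was female. TAC is an operation that constricts the aortic arch, so that the left ventricle pumps against raised pressure. Polyadenylated RNA was sequenced without strand information, and each library was 1 heart, so the replicate error below is the spread between animals.

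Wnt proteins are secreted, lipid-modified ligands that bind the cysteine-rich domain of Frizzled receptors. Together with the co-receptors Lrp5 and Lrp6 this stabilises beta-catenin, which acts in the nucleus with TCF and LEF factors, while other Wnt proteins signal without beta-catenin, through the Ror and Ryk receptors or the planar polarity proteins. Sfrp proteins carry a Frizzled-like domain and can bind Wnt proteins outside the cell, and Dkk1, Dkk2 and Dkk4 bind the Lrp co-receptors. In the heart the pathway is known for its parts in the outflow tract, the endocardial cushions and the epicardium of the embryo, and for low activity in healthy adult ventricle.

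The E13.5 libraries held 7543375 to 12646039 counts each, the 6-week libraries 2092270 to 2682955, the 16-week libraries 2164604 to 2642307, the TAC libraries 10411417 to 11846819 and the sham libraries 7958592 to 11561952. The unoperated adults thus had the shallowest libraries, and per the labels they also had another base quality encoding (phred64 against phred33). Both went with the group and cannot be told apart from it. All 8 cardiomyocyte markers were detected in every group, and the atrial natriuretic peptide gene Nppa, a marker of ventricular load, ranged from 2457 to 3884 CPM (counts per 1000000, scaled by TMM) in TAC hearts and from 208 to 242 CPM in sham hearts. It also varied without TAC, from 78.8 to 1064 CPM at 6 weeks and from 619 to 1426 CPM at 16 weeks. Y-linked counts went against the sex label in 8 libraries: 2 each at 6 weeks and 16 weeks, TAC replicate 3, TAC replicate 4 (the 1 heart labelled female) and sham replicates 2 and 3. Fold changes without these libraries are given below for Dkk3, Wnt2, Fzd4 and Fzd5 only, so other values may also rest on them. In whole-tissue RNA, fewer cells of a type and less RNA per cell cannot be told apart. The stage comparisons also set whole hearts, atria and valves included, against ventricular apexes, and these cannot be told apart from age. Sex was not balanced between stages either. Y-linked counts were 690 and 826 in 2 embryos and 0 to 6 in the others. In unoperated adults they were 101 to 219, save in the 2 hearts of each age against their label.

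The 37 members together held 1156 to 1453 of every 1000000 counts at E13.5, against 193 to 288 at 6 weeks, 210 to 268 at 16 weeks, 218 to 270 in TAC hearts and 198 to 207 in sham hearts. Their levels relative to each other were read as CPM per kilobase of exon lying outside other features, which allows for unlike gene length. For 6 members some exonic bases are shared (Fzd5, Sfrp1, Sfrp2, Wnt2b, Wnt5a and Wnt7b), and dividing by all exonic bases lowers their level. Which divisor fits depends on how shared reads were counted, which is not given in the sources used here. At E13.5 the Sfrp genes summed to 128 ± 20.7 CPM per kilobase (SD, n = 7), the Frizzled genes to 110.1 ± 6.63, the Wnt genes to 35.6 ± 2.84 and the Dkk genes to 33.4 ± 2.17. Per kilobase of all exonic bases the E13.5 Sfrp sum was 104 ± 17.4 and the Frizzled sum 109 ± 6.56, so the order of these roles turned with the divisor and they did not differ beyond their spread. In every adult group the Frizzled sum was the highest with either divisor. In TAC hearts the Frizzled genes summed to 53.2 ± 4.42, the Sfrp genes to 18.1 ± 1.39, the Wnt genes to 16.3 ± 1.36 and the Dkk genes to 7.68 ± 1.09 CPM per kilobase (SD, n = 4), where the Sfrp sum was 14.5 and below the Wnt sum of 15.98 with all exonic bases. In sham hearts the Frizzled genes summed to 48.9 ± 2.90, the Wnt genes to 14.8 ± 1.36, the Sfrp genes to 6.82 ± 0.963 and the Dkk genes to 1.54 ± 0.880 CPM per kilobase (SD, n = 4). The Wnt sum therefore differed little between adult groups, while the Sfrp and Dkk sums of the 4 TAC hearts lay above those of all 4 sham hearts.

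**Figure D1:**
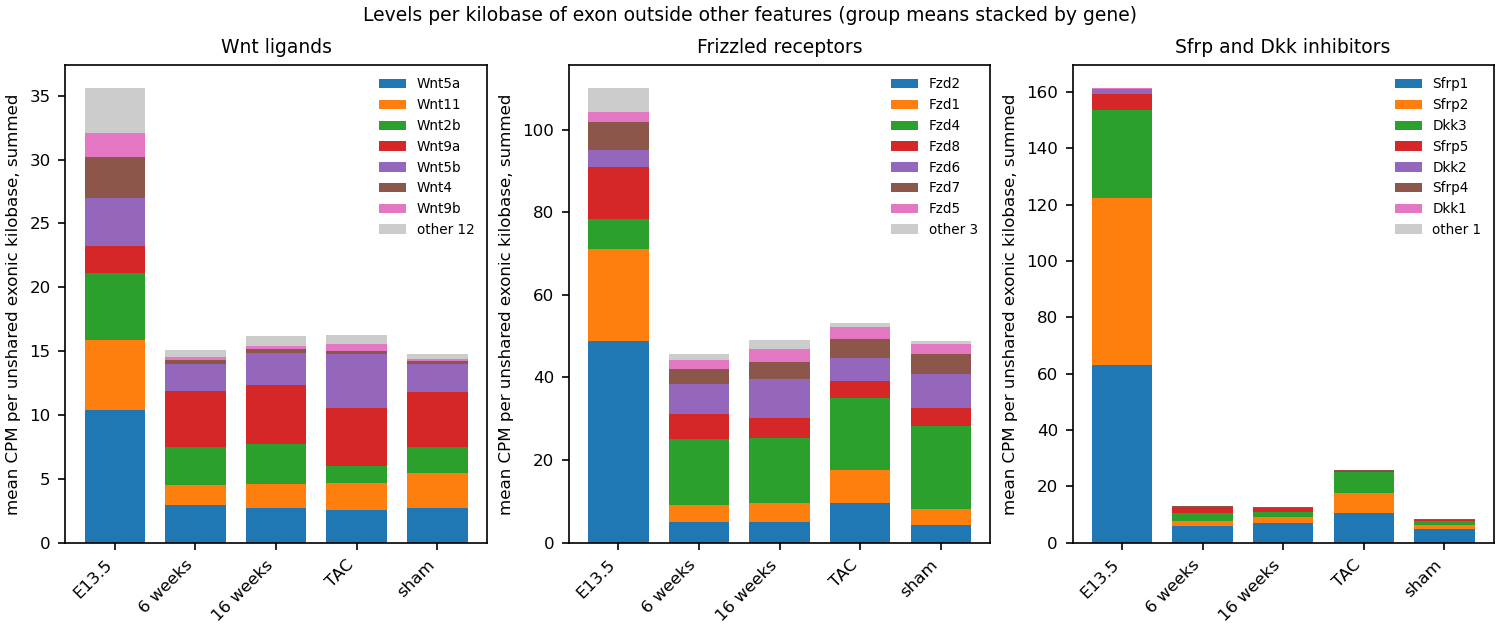
Mean CPM per kilobase of exon outside other features for each gene, stacked within a role, in E13.5, 6-week, 16-week, TAC and sham hearts (n = 7, 6, 6, 4 and 4; means only, no error drawn, and each panel has its own axis). Fzd2 and Fzd1 make up most of the Frizzled bar at E13.5, Fzd4 is the largest part of it in every adult group, and the Sfrp and Dkk bar is taller in TAC than in sham hearts.

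Which members led each role changed with stage. Among the ligands, Wnt5a held 29.2% ± 2.54 of the summed Wnt level per kilobase at E13.5 (SD, n = 7), and Wnt9a held 5.95% ± 0.805. In adult hearts Wnt9a had the highest mean share, with 30.1% ± 8.32 at 6 weeks, 28.5% ± 5.13 at 16 weeks, 27.8% ± 2.75 in TAC hearts and 29.2% ± 2.07 in sham hearts. It was the highest ligand in 4 of 6 hearts at 6 weeks, 6 of 6 at 16 weeks, 2 of 4 TAC hearts and 4 of 4 sham hearts; in the others it was Wnt2b (1 heart) or Wnt5a (1 heart) at 6 weeks and Wnt5b in 2 TAC hearts. Behind Wnt9a, Wnt2b and Wnt5a at 6 weeks had 2.98 ± 0.733 and 2.95 ± 1.38 CPM per kilobase, which do not differ beyond their spread. Among the receptors, Fzd1 and Fzd2 together held 64.5% ± 1.23 of the summed Frizzled level at E13.5 (SD, n = 7), but 19.9% ± 4.12 at 6 weeks, 19.4% ± 2.72 at 16 weeks, 33.1% ± 3.06 in TAC hearts and 16.9% ± 1.93 in sham hearts. Fzd4 and Fzd6 together held 10.4% ± 1.04 at E13.5, 51.3% ± 5.24 at 6 weeks, 51.5% ± 3.11 at 16 weeks, 42.6% ± 2.07 in TAC hearts and 57.7% ± 3.06 in sham hearts. The TAC hearts thus had a larger Fzd1 and Fzd2 share and a smaller Fzd4 and Fzd6 share than any of the 4 sham hearts.

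In the E13.5 hearts most of the measurable members were higher than in unoperated adults. Of 22 members that passed the filter on low counts, 18 were called higher and 3 were called lower at E13.5, where a call means an adjusted p under 0.05 in edgeR's quasi-likelihood test over all features. Over all 12766 features tested, 83.8% were called, 44.1% higher and 39.7% lower, so that a call by itself says little in this comparison. The median log2 fold change was 1.83 over the members tested and 0.07 over all features, and for 15 members every E13.5 heart lay above every unoperated heart. How many of all features were set apart in this way was not counted, so the 15 have no background to be read against. Against the sham hearts, whose depth and encoding matched the embryos', 24 members were tested, of which 20 were called higher and 3 lower at E13.5. There 76.3% of 18677 features were called, 40.7% higher and 35.6% lower, and the median was 2.67 over the members and 0.12 over all features. Both comparisons use the same 7 embryonic libraries, so the 2 counts are not independent. Among adult hearts alone, 14 members passed the filter between 16 and 6 weeks and 17 between TAC and sham hearts. The other members tested passed it mainly through their counts at E13.5, so the counts do not describe all 37 members.

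**Figure D2:**
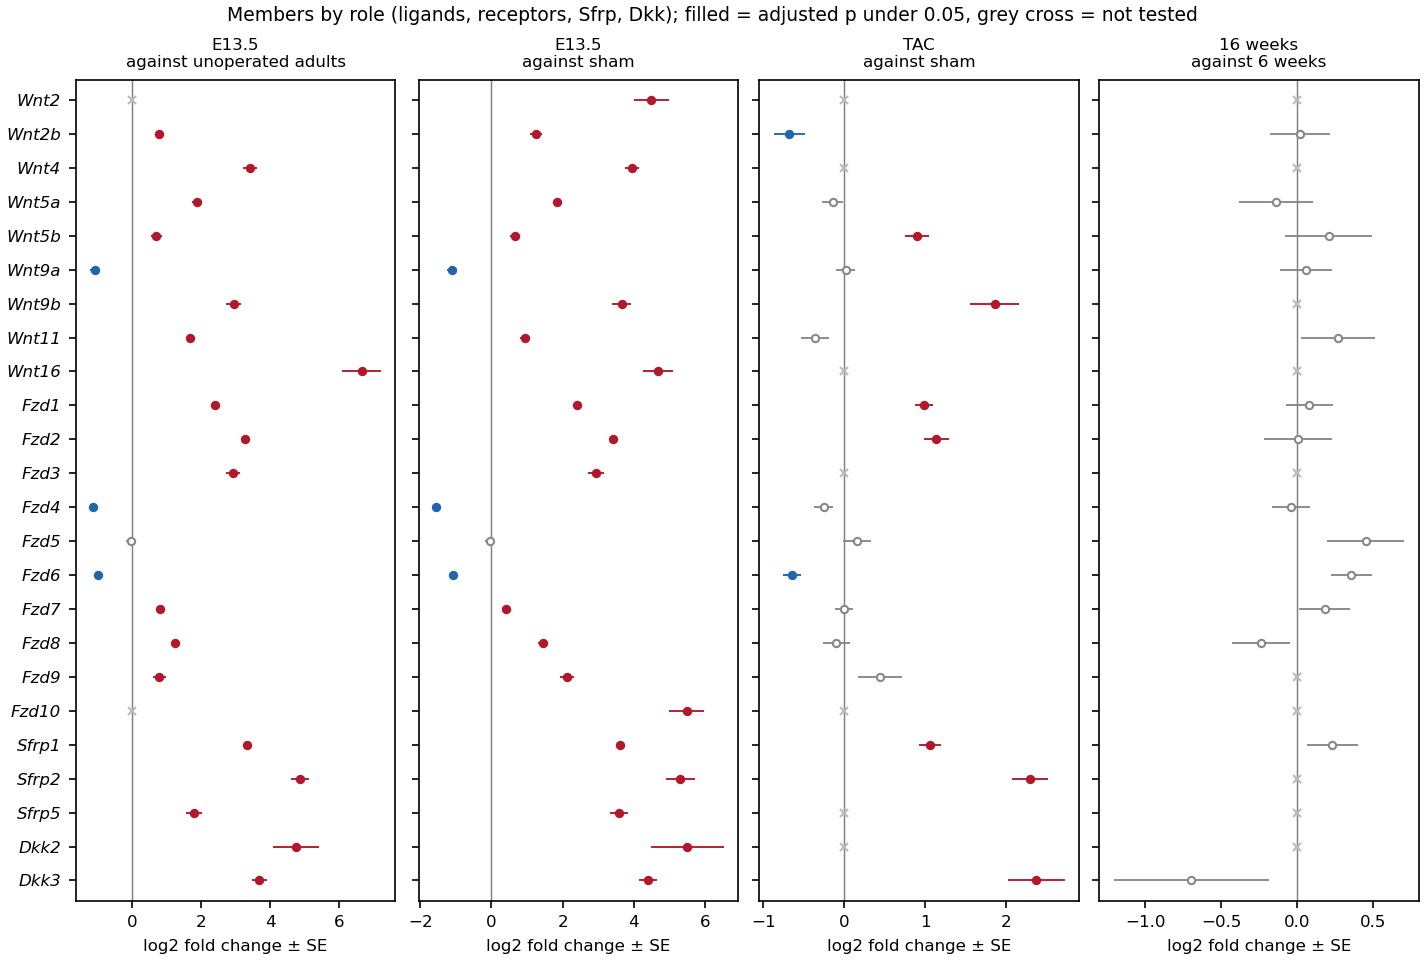
Log2 fold change with its SE for the 24 members tested in at least 1 comparison, ordered by role. Filled points have an adjusted p under 0.05, open points do not and grey crosses mark members not tested. In both E13.5 panels only Wnt9a, Fzd4 and Fzd6 lie below 0 with a call, and no point is filled between 16 and 6 weeks.

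Of the ligands that signal chiefly without beta-catenin, Wnt5a, which is needed for septation of the outflow tract, was the most abundant Wnt gene per kilobase at E13.5. It ranged from 67.4 to 87.5 CPM at E13.5 (median 78.9), against 14.2 to 42.4 CPM at 6 weeks (median 19.1), 16.4 to 27.8 CPM at 16 weeks (median 19.6), and 18.5, 21.4, 22.8 and 18.7 CPM in the sham hearts. Every embryonic heart lay above every adult heart, and the log2 fold change at E13.5 was 1.87 ± 0.13 against unoperated adults (SE, adjusted p = 7.04e-12) and 1.85 ± 0.09 against sham hearts (adjusted p = 1.29e-13). Wnt11, which acts in cardiac specification and outflow tract development, ranged from 14.3 to 19.8 CPM at E13.5 (median 16.3), against 3.17 to 5.94 CPM at 6 weeks (median 5.24), 4.41 to 7.61 CPM at 16 weeks (median 5.86), and 10.6, 6.66, 8.48 and 7.65 CPM in the sham hearts. These groups did not overlap either, and the log2 fold change was 1.68 ± 0.12 against unoperated adults (SE, adjusted p = 1.39e-13) and 0.93 ± 0.13 against sham hearts (adjusted p = 3.06e-06). Wnt5b, a close relative of Wnt5a, ranged from 7.86 to 12.0 CPM at E13.5 (median 10.1), against 2.77 to 9.92 CPM at 6 weeks (median 4.97), 4.65 to 10.4 CPM at 16 weeks (median 6.13), and 6.30, 5.28, 5.39 and 6.33 CPM in the sham hearts. The unoperated range reached into the embryonic one, and the difference was small, at a log2 fold change of 0.70 ± 0.16 (SE, adjusted p = 0.000301) and, against sham hearts, 0.66 ± 0.14 (adjusted p = 0.000292).

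Several ligands were near the limit of detection in adult ventricle and clearly present in the embryo. Wnt4, known from kidney and gonad development, ranged from 11.2 to 15.3 CPM at E13.5 (median 13.99), against 0.457 to 2.03 CPM at 6 weeks (median 1.39), 0 to 3.09 CPM at 16 weeks (median 1.11), and 0.885, 0.689, 0.617 and 1.02 CPM in the sham hearts. All embryonic values stood above all adult ones, with a log2 fold change of 3.41 ± 0.21 against unoperated adults (SE, adjusted p = 1.56e-15) and 3.95 ± 0.19 against sham hearts (adjusted p = 1.33e-13). Wnt9b, known as an inducer of kidney tubules, ranged from 5.65 to 10.6 CPM at E13.5 (median 7.82), against 0.457 to 1.98 CPM at 6 weeks (median 0.877), 0.465 to 1.77 CPM at 16 weeks (median 0.954), and 0.442, 0.804, 0.617 and 0.612 CPM in the sham hearts. Again no adult heart reached the embryonic range, and the log2 fold change was 2.94 ± 0.22 against unoperated adults (SE, adjusted p = 2.02e-13) and 3.66 ± 0.26 against sham hearts (adjusted p = 6.85e-11).

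Wnt16, a ligand known from bone, had 416 counts over the 7 embryonic hearts and 1 count over the 12 unoperated adults, in 16-week replicate 1. The depth-scaled ratio was 116, with a 95% Poisson interval of 20.6 to 4579 that covers counting error only. It ranged from 2.65 to 6.02 CPM at E13.5 (median 4.29), against 0.111, 0.115, 0.308 and 0.102 CPM in the sham hearts, a log2 fold change of 4.67 ± 0.42 (SE, adjusted p = 3.00e-09). Wnt2, known from lung and early heart development, ranged from 2.03 to 5.38 CPM at E13.5 (median 3.74), against 0, 0.230, 0.308 and 0.102 CPM in the sham hearts, a log2 fold change of 4.50 ± 0.50 (SE, adjusted p = 1.27e-07). Its change was 5.81 without the 2 sham hearts that went against their sex label. Over the 4 sham hearts Wnt16 and Wnt2 had 5 counts each, so both passed the filter through their E13.5 counts. In the unoperated adults Wnt2 was not tested, and it ranged up to 1.52 CPM at 6 weeks and up to 0.930 CPM at 16 weeks.

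Wnt2b and Wnt9a differed from this pattern in size or direction. Wnt2b, which can act through beta-catenin, ranged from 12.7 to 21.7 CPM at E13.5 (median 17.0), against 6.86 to 12.7 CPM at 6 weeks (median 9.37), 8.21 to 11.0 CPM at 16 weeks (median 9.81), and 7.85, 4.71, 6.01 and 7.35 CPM in the sham hearts. The embryonic and 6-week ranges nearly met, and the log2 fold change was 0.78 ± 0.13 against unoperated adults (SE, adjusted p = 2.18e-06) and 1.25 ± 0.17 against sham hearts (adjusted p = 2.79e-06). Wnt9a, a ligand known from joint formation, was the only ligand called lower at E13.5. It ranged from 5.29 to 8.64 CPM at E13.5 (median 7.09), against 12.7 to 17.1 CPM at 6 weeks (median 14.3), 9.65 to 19.8 CPM at 16 weeks (median 16.5), and 14.9, 11.8, 16.6 and 14.2 CPM in the sham hearts. Every embryonic heart lay below every adult heart, and the log2 fold change was -1.08 ± 0.13 against unoperated adults (SE, adjusted p = 3.66e-09) and -1.11 ± 0.13 against sham hearts (adjusted p = 2.93e-07).

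The other 10 Wnt genes were not tested in any comparison. Wnt7b, known from lung and kidney development, had 176 counts at E13.5 and none over the 12 unoperated adults. Taking 3 counts over the adult group as its upper limit, the pooled E13.5 level was at least 16.3-fold higher. This bound takes the E13.5 counts as exact and leaves out the spread between hearts, so it need not hold for each heart. Of the E13.5 counts most lay in replicate 3 (5.30 CPM) and replicate 4 (5.80 CPM), while the other 5 hearts had 0.336 to 1.14 CPM. Wnt7a had 44 counts at E13.5 and none in unoperated adults, and Wnt3 had 20, of which 7 lay in 1 heart, and none. By the same pooled bound they were at least 4.08-fold and 1.85-fold higher at E13.5. Wnt10a had 8 counts at E13.5, Wnt3a 3, Wnt8a 2 and Wnt1 1, and Wnt8b had none there. Wnt6 had 34 counts over the E13.5 hearts, 3 at 6 weeks and 7 at 16 weeks, and Wnt10b had 15, 6 and 8. Over TAC and sham hearts these 10 genes had at most 22 counts in a group, reached by Wnt10b in TAC hearts against 13 in sham hearts. For the genes at 0 or a few counts, expression below the limit of these libraries was not detectable.

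Fzd1, Fzd2 and Fzd7 form a subfamily of closely related receptors, and the first pair carried the embryonic Frizzled level. Fzd2 ranged from 92.2 to 115 CPM at E13.5 (median 104), against 6.404 to 16.2 CPM at 6 weeks (median 10.3), 6.76 to 13.9 CPM at 16 weeks (median 11.6), and 8.63, 10.2, 8.94 and 8.57 CPM in the sham hearts. Fzd1 ranged from 80.02 to 103 CPM at E13.5 (median 92.8), against 13.7 to 20.8 CPM at 6 weeks (median 17.1), 15.8 to 23.9 CPM at 16 weeks (median 17.3), and 14.4, 17.2, 19.1 and 15.1 CPM in the sham hearts. Neither gene's embryonic and adult values came near each other: the log2 fold change against unoperated adults was 3.27 ± 0.10 for Fzd2 (SE, adjusted p = 7.24e-23) and 2.39 ± 0.08 for Fzd1 (adjusted p = 4.73e-22), and against sham hearts it was 3.42 ± 0.09 and 2.41 ± 0.09 (adjusted p = 1.22e-17 and 5.08e-15). Fzd7 ranged from 20.9 to 36.7 CPM at E13.5 (median 28.4), against 11.2 to 20.3 CPM at 6 weeks (median 15.5), 13.9 to 20.8 CPM at 16 weeks (median 18.3), and 19.4, 22.3, 22.2 and 18.4 CPM in the sham hearts. Its lowest embryonic heart fell among the sham hearts, and the log2 fold change was only 0.80 ± 0.11 against unoperated adults (SE, adjusted p = 1.86e-07) and 0.41 ± 0.13 against sham hearts (adjusted p = 0.00661).

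Fzd4 and Fzd6 ran the other way. Fzd4, the receptor through which Norrin shapes retinal vessels and a gene of endothelial cells, ranged from 20.7 to 22.5 CPM at E13.5 (median 21.6), against 41.2 to 66.3 CPM at 6 weeks (median 44.4), 37.1 to 56.2 CPM at 16 weeks (median 48.2), and 63.3, 44.5, 62.3 and 66.4 CPM in the sham hearts. Fzd6, which acts with Fzd3 in planar polarity, ranged from 13.9 to 20.3 CPM at E13.5 (median 16.6), against 22.9 to 38.0 CPM at 6 weeks (median 28.5), 33.8 to 49.2 CPM at 16 weeks (median 36.5), and 29.0, 38.0, 38.8 and 28.3 CPM in the sham hearts. For both receptors every embryonic heart was below every adult heart. The log2 fold change of Fzd4 was -1.13 ± 0.09 against unoperated adults (SE, adjusted p = 5.10e-13) and -1.55 ± 0.09 against sham hearts (adjusted p = 2.08e-12), and that of Fzd6 was -1.001 ± 0.10 (adjusted p = 1.45e-10) and -1.08 ± 0.11 (adjusted p = 2.67e-08). Of 9 tested endothelial markers, 6 were called lower, 2 higher and 1 was not called at E13.5 in each comparison, and their list summed to 977 to 1181 CPM at E13.5, against 1685 to 1877 CPM at 6 weeks, 1673 to 1854 CPM at 16 weeks and 2077 to 2137 CPM in sham hearts; the part of endothelial content in the Fzd4 difference was not tested.

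Among the remaining receptors, Fzd8 ranged from 24.2 to 33.8 CPM at E13.5 (median 25.2), against 9.13 to 18.8 CPM at 6 weeks (median 12.3), 8.38 to 13.1 CPM at 16 weeks (median 10.5), and 12.2, 7.81, 9.71 and 8.26 CPM in the sham hearts. Fzd3 ranged from 7.32 to 9.58 CPM at E13.5 (median 8.16), against 0.461 to 1.59 CPM at 6 weeks (median 0.873), 0 to 2.11 CPM at 16 weeks (median 0.954), and 0.885, 0.689, 2.004 and 0.714 CPM in the sham hearts. Both genes stood above every adult heart in every embryo, with log2 fold changes against unoperated adults of 1.24 ± 0.11 for Fzd8 (SE, adjusted p = 1.05e-11) and 2.92 ± 0.21 for Fzd3 (adjusted p = 9.73e-14), and against sham hearts of 1.43 ± 0.13 and 2.94 ± 0.22 (adjusted p = 4.42e-09 and 2.60e-10). Fzd9 ranged from 5.38 to 7.73 CPM at E13.5 (median 6.30), against 1.38 to 5.49 CPM at 6 weeks (median 3.36), 3.25 to 6.96 CPM at 16 weeks (median 3.83), and 0.995, 1.61, 1.39 and 1.53 CPM in the sham hearts. Its unoperated range reached into the embryonic one while its sham range lay far below it, and the log2 fold change was 0.79 ± 0.18 against unoperated adults (SE, adjusted p = 0.000197) and 2.12 ± 0.19 against sham hearts (adjusted p = 4.34e-09).

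Fzd10 had 314 counts over the embryos, 2 over the unoperated adults, 0 over the TAC hearts and 2 over the sham hearts. The depth-scaled ratio at E13.5 was 43.6 against unoperated adults, with a 95% Poisson interval of 12.0 to 362, and 55.5 against sham hearts, with an interval of 15.2 to 460.3. Both sham counts lay in sham replicate 4, so the ratio to the sham hearts rests on that heart. Fzd5, known from yolk sac and eye development, was the only tested receptor with no call at E13.5. It ranged from 3.95 to 5.38 CPM at E13.5 (median 4.55), against 2.74 to 6.00 CPM at 6 weeks (median 3.65), 3.98 to 7.19 CPM at 16 weeks (median 5.68), and 4.42, 4.82, 4.62 and 4.08 CPM in the sham hearts. The groups overlapped throughout, and the log2 difference was -0.03 ± 0.15 against unoperated adults (SE, adjusted p = 0.875) and -0.05 ± 0.14 against sham hearts (adjusted p = 0.765), with a sign that changed between processing settings. Only 59.7% of the exonic bases of Fzd5 lie outside another feature, which limits what its counts represent.

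Sfrp1 and Sfrp2 were among the most abundant members at E13.5. Sfrp1 (chr8:24521974-24560104 in mm9, plus strand) ranged from 160.0 to 237 CPM at E13.5 (median 211), against 13.7 to 30.9 CPM at 6 weeks (median 17.0), 20.0 to 26.8 CPM at 16 weeks (median 22.7), and 16.6, 17.0, 13.9 and 17.5 CPM in the sham hearts. Sfrp2 (chr3:83570243-83578238 in mm9, plus strand) ranged from 77.5 to 178 CPM at E13.5 (median 92.7), against 1.37 to 7.53 CPM at 6 weeks (median 2.63), 1.45 to 5.66 CPM at 16 weeks (median 4.65), and 3.54, 1.61, 2.004 and 2.75 CPM in the sham hearts. No adult heart came near the embryonic range of either gene. Sfrp1 had a log2 fold change at E13.5 of 3.32 ± 0.10 against unoperated adults (SE, adjusted p = 1.53e-22) and 3.60 ± 0.11 against sham hearts (adjusted p = 2.31e-16), and Sfrp2 had 4.86 ± 0.25 (adjusted p = 1.57e-12) and 5.31 ± 0.40 (adjusted p = 6.15e-07). Per kilobase, Sfrp1 at 63.0 ± 7.94 and Sfrp2 at 59.1 ± 20.3 CPM per kilobase (SD, n = 7) did not differ beyond their spread at E13.5, nor did they with all exonic bases (48.4 ± 6.10 and 49.5 ± 17.1).

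Sfrp5, the third member of the Sfrp1 and Sfrp2 subfamily, ranged from 8.24 to 12.5 CPM at E13.5 (median 11.0), against 1.98 to 11.1 CPM at 6 weeks (median 2.18), 1.45 to 3.72 CPM at 16 weeks (median 2.35), and 1.33, 0.344, 0.617 and 0.918 CPM in the sham hearts. One 6-week heart, replicate 2, lay within the embryonic range. The log2 fold change was 1.79 ± 0.23 against unoperated adults (SE, adjusted p = 4.85e-08), 2.22 without 6-week replicate 2 and E13.5 replicates 3 and 4, and 3.58 ± 0.25 against sham hearts (adjusted p = 6.09e-11). Sfrp4 was low throughout, with 44 counts over the E13.5 hearts, 5 at 6 weeks, 5 at 16 weeks, 15 over the TAC hearts and 11 over the sham hearts, and was not tested.

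Of the Dkk genes only Dkk3 had more than traces of message in adult ventricle. Dkk3 (chr7:119259537-119301933 in mm9, minus strand), the divergent member of the family that is not known as a clear inhibitor of the Lrp co-receptors, ranged from 88.2 to 114 CPM at E13.5 (median 104), against 3.66 to 27.7 CPM at 6 weeks (median 6.55), 3.30 to 10.6 CPM at 16 weeks (median 5.13), and 1.77, 7.81, 6.01 and 3.26 CPM in the sham hearts. The embryonic hearts stood far above all others, with a log2 fold change of 3.68 ± 0.22 against unoperated adults (SE, adjusted p = 1.87e-11) and 4.39 ± 0.25 against sham hearts (adjusted p = 8.88e-09). That last value was 5.22 without the 2 sham hearts that went against their sex label. Dkk2, which can activate or inhibit the pathway depending on its partners, ranged from 2.86 to 16.2 CPM at E13.5 (median 4.16), against at most 0.792 CPM at 6 weeks and 0.497 CPM at 16 weeks, and 0, 0.230, 0 and 0.204 CPM in the sham hearts. The groups did not overlap, and the log2 fold change was 4.74 ± 0.67 against unoperated adults (SE, adjusted p = 1.74e-06) and 5.51 ± 1.03 against sham hearts (adjusted p = 0.000586). Dkk2 had only 6 counts over the 12 unoperated adults and 4 over the 4 sham hearts, so it passed the filter through its E13.5 counts. Dkk1, the best studied inhibitor of the family, had 33 counts over the embryos, 1 over the unoperated adults, 0 over the TAC hearts and 1 over the sham hearts, and Dkk4 had 7, 1, 3 and 2. Neither was tested.

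Among the embryos, Dkk2 and Sfrp2 were both highest in replicate 3, at 16.2 and 178 CPM, and next highest in replicate 6, at 7.11 and 135 CPM. In the same replicates the fibroblast markers summed to 5166 and 3870 CPM, against 2855 to 3291 CPM in the other 5 embryos. These replicates also held 690 and 826 Y-linked counts, against 0 to 6 in the other 5. Fibroblast markers and sex went together here and cannot be told apart, and the part of either was not tested. Replicates 3 and 4, in which Wnt7b was high, had 2.12 and 8.70 CPM over the 7 lung epithelial markers. The other 5 embryos had 0.130 to 2.32 CPM, the highest of them in replicate 6, so the sum of this list did not set replicate 3 apart. By single genes, Nkx2-1, a factor of lung and thyroid epithelium, had 1.29 and 7.39 CPM in replicates 3 and 4 and 1.99 CPM in replicate 6, and Scgb1a1 was at 0 in all embryos. Foxa2 had 0.758 and 0.655 CPM in replicates 3 and 4 and at most 0.0840 CPM in the other 5. Sftpc had 0.0758 and 0.0936 CPM in replicates 3 and 4 and 0 in the other 5. Sftpb had 0 and 0.374 CPM in replicates 3 and 4, but 0.488 CPM in replicate 2 and 0.199 CPM in replicate 6. Without replicates 3 and 4, 20 members were still called higher and 3 lower against sham hearts. The part of these cells in the Wnt7b level was not tested.

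**Figure D3:**
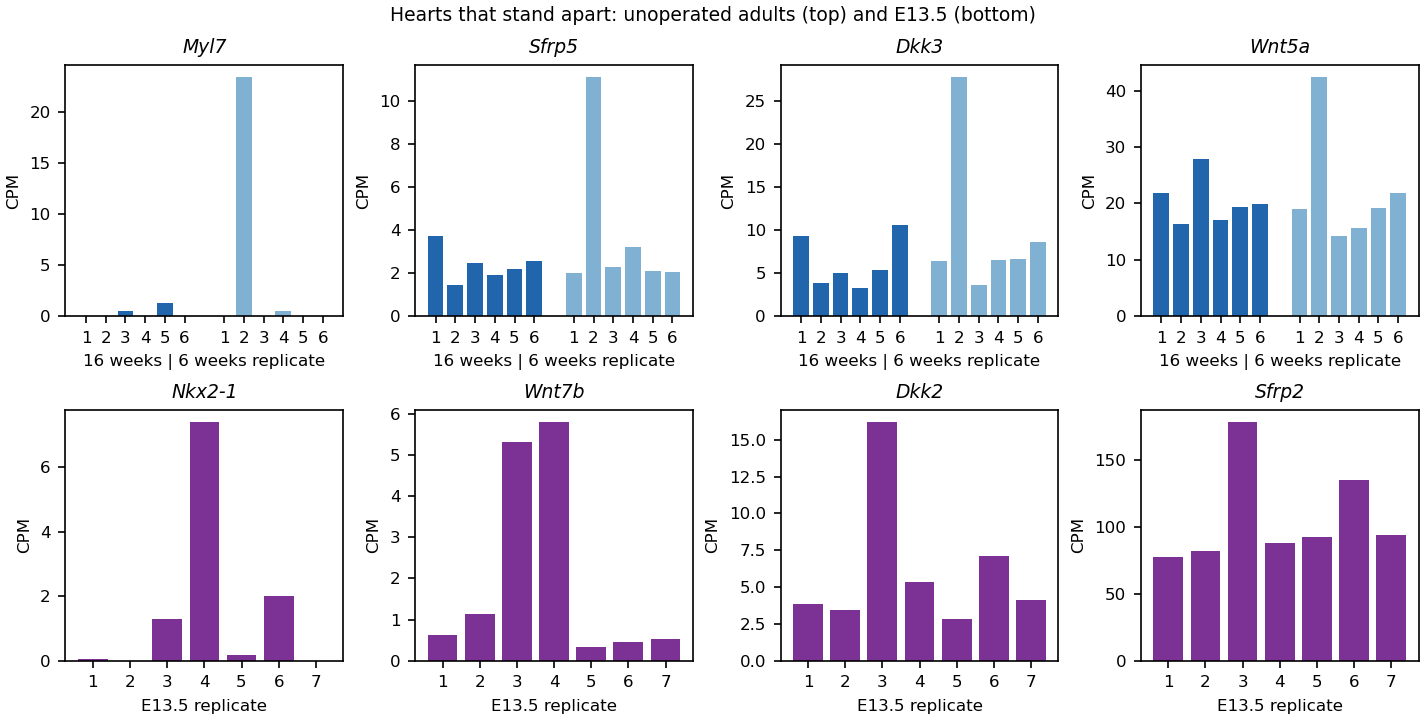
CPM in single hearts, by replicate. The top row shows the atrial myosin light chain gene Myl7 and 3 members in the 16-week and 6-week hearts, where 6-week replicate 2 is the tallest bar in each panel. The bottom row shows Nkx2-1 and 3 members in the 7 E13.5 hearts, where Wnt7b is high in replicates 3 and 4 and Dkk2 and Sfrp2 in replicate 3.

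Between 16 and 6 weeks no member was called among the 14 tested, by edgeR or by DESeq2, and 1 had an unadjusted p under 0.05 in edgeR. No member's groups were fully apart, which was not counted over all features. Over all 10394 features, 2.51% were called, 1.32% higher and 1.19% lower at 16 weeks. The log2 differences of the members ran from -0.70 to 0.45. The smallest adjusted p was that of Fzd6, at 0.35 ± 0.13 (SE, adjusted p = 0.167), with 38.5 ± 6.00 CPM at 16 weeks and 29.8 ± 5.19 CPM at 6 weeks (SD, n = 6 each). Dkk3 had the largest difference, at -0.70 ± 0.51 (SE, adjusted p = 0.536), which came to -0.02 without 6-week replicate 2.

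That heart stood apart from the other unoperated adults in several members. It had 11.1 CPM of Sfrp5, 27.7 CPM of Dkk3 and 42.4 CPM of Wnt5a, against at most 3.72, 10.6 and 27.8 CPM in the other 11 unoperated hearts. Its Myl7, an atrial gene, was at 23.4 CPM, and the others had at most 1.32 CPM. It also had the highest fibroblast sum of the 12 unoperated hearts, at 2573 CPM (at most 2065 CPM in the others), and the highest endocardial and cushion sum, at 143 CPM (at most 115 CPM). Its Nppa, which is also made by atria, was the lowest of the 12, at 78.8 CPM. Without this heart and the embryonic replicates 3 and 4, 18 members were still called higher and 3 lower at E13.5, and the log2 fold change of Dkk3 was 4.12 and that of Wnt5a 2.05. The part of these cells in that heart's levels was not tested.

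Between TAC and sham hearts 9 of the 17 members tested were called. Dkk3, Sfrp2, Wnt9b, Fzd2, Sfrp1, Fzd1 and Wnt5b were called higher and Wnt2b and Fzd6 lower in TAC than in sham hearts. Over all 14555 features, 38% were called, 19.6% higher and 18.4% lower, and the median log2 fold change was 0.16 over the members tested and 0.00 over all features. Every TAC heart lay above every sham heart for 8 members tested and below for 2. Among the 8 is Fzd9, which was not called and whose lowest TAC and highest sham hearts had 1.609 and 1.607 CPM. The share of all features set apart in this way was not counted, so these numbers have no background to be read against. All 7 members that were higher in TAC hearts were among the 18 of 22 tested that were higher at E13.5 against unoperated adults, a comparison with no library in common. There Fzd6 was lower and Wnt2b higher at E13.5. With 18 of 22 members higher in that comparison, members picked without regard to TAC would mostly overlap too. Over all features 44.1% were higher there. How many of the features higher in TAC hearts were among them was not counted, so the overlap of the 7 has no background to be read against.

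**Figure D4:**
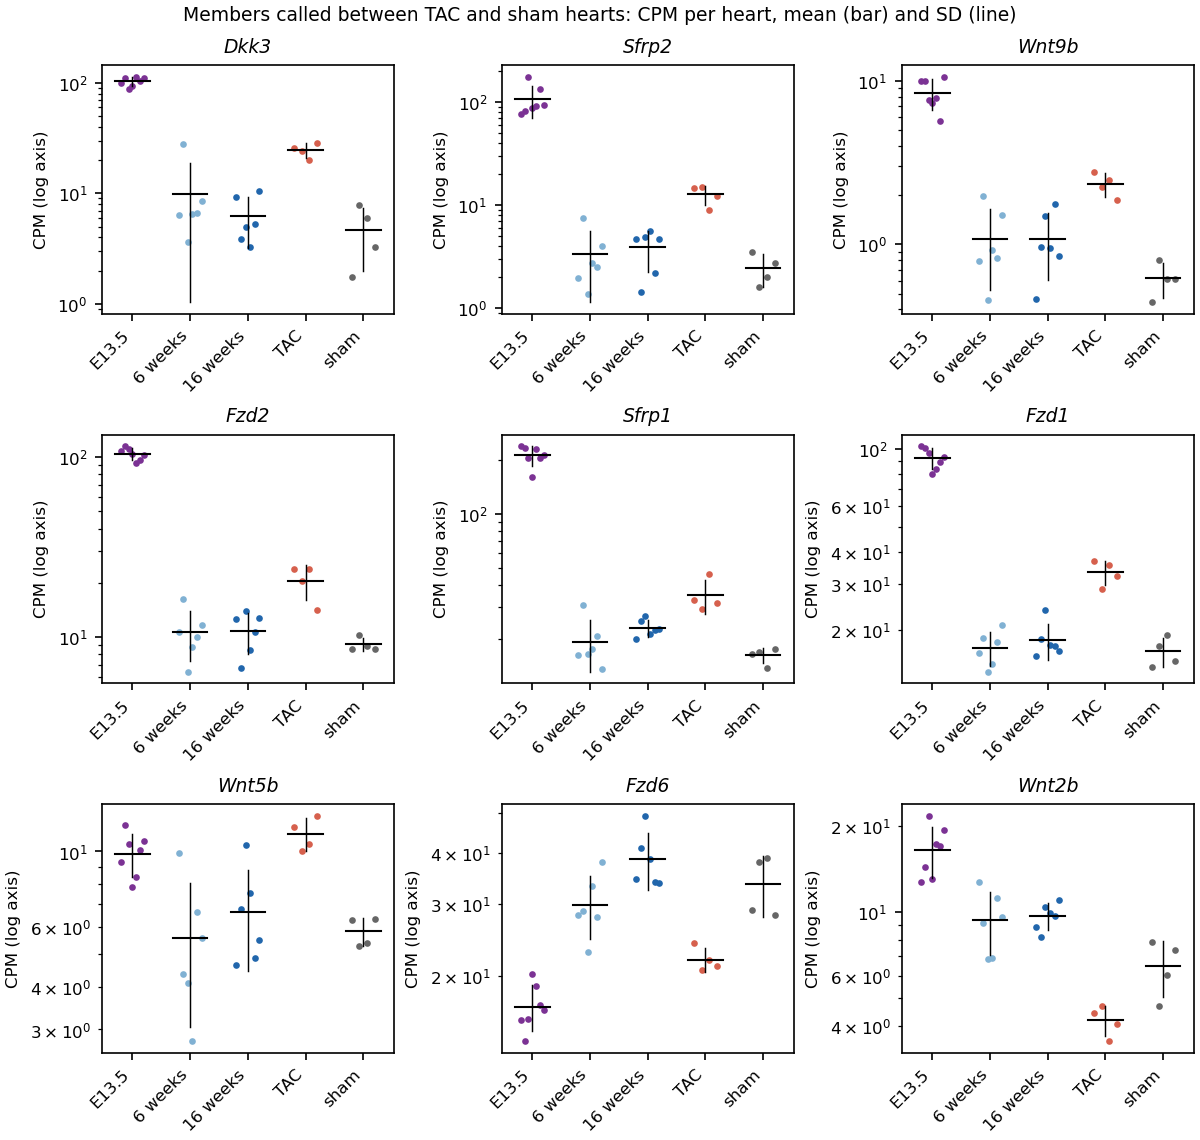
CPM in each heart for the 9 members called between TAC and sham hearts, in all 5 groups (log axes, each panel with its own range). Points are hearts, horizontal bars are group means and vertical lines are SDs. The 4 TAC points lie apart from the 4 sham points in all 9 panels, above them in 7 and below them for Fzd6 and Wnt2b, and for Dkk3, Sfrp2, Wnt9b, Fzd2, Sfrp1 and Fzd1 they lie between the sham and the E13.5 points.

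The largest log2 fold changes among the called members were those of Dkk3 and Sfrp2. Dkk3 had 25.8, 24.3, 19.9 and 28.8 CPM in the TAC hearts, against 1.77, 7.81, 6.01 and 3.26 CPM in the sham hearts. Sfrp2 had 14.6, 15.03, 9.01 and 12.3 CPM in the TAC hearts, against 3.54, 1.61, 2.004 and 2.75 CPM in the sham hearts. For both genes every TAC heart was above every sham heart, and the log2 fold change was 2.37 ± 0.35 for Dkk3 (SE, adjusted p = 0.00122) and 2.29 ± 0.23 for Sfrp2 (adjusted p = 2.90e-06). The mean TAC level of Dkk3 was 24.0% of its E13.5 level and the sham level 4.58%, while for Sfrp2 these shares were 11.9% and 2.32%. Sfrp1 had 33.1, 29.4, 45.9 and 31.7 CPM in the TAC hearts, against 16.6, 17.0, 13.9 and 17.5 CPM in the sham hearts, a log2 fold change of 1.06 ± 0.14 (SE, adjusted p = 4.27e-05). Without TAC replicates 3 and 4 and sham replicates 2 and 3, the hearts that went against their sex label or were labelled female, the log2 fold change of Dkk3 was 3.25. Sfrp5, Sfrp4, Dkk1, Dkk2 and Dkk4 had too few counts in these groups to be tested, Sfrp5 with 0.557, 0.107, 1.61 and 0.348 CPM in the TAC hearts, against 1.33, 0.344, 0.617 and 0.918 CPM in the sham hearts.

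Among the receptors, Fzd2 had 23.8, 20.5, 23.8 and 14.1 CPM in the TAC hearts, against 8.63, 10.2, 8.94 and 8.57 CPM in the sham hearts. Fzd1 had 36.8, 28.8, 35.5 and 32.1 CPM in the TAC hearts, against 14.4, 17.2, 19.1 and 15.1 CPM in the sham hearts. Every TAC heart was above every sham heart in both, and the log2 fold change was 1.14 ± 0.16 for Fzd2 (SE, adjusted p = 5.50e-05) and 0.98 ± 0.11 for Fzd1 (adjusted p = 1.01e-05). Fzd7, the third receptor of that subfamily, had 19.6, 19.9, 20.3 and 24.3 CPM in the TAC hearts, against 19.4, 22.3, 22.2 and 18.4 CPM in the sham hearts, and was not called. Fzd6 had 24.1, 20.7, 21.9 and 21.2 CPM in the TAC hearts, against 29.0, 38.0, 38.8 and 28.3 CPM in the sham hearts. Every TAC heart was below every sham heart, with a log2 fold change of -0.65 ± 0.11 (SE, adjusted p = 0.000437). The higher sham values, 38.0 and 38.8 CPM, were those of replicates 2 and 3, which went against their sex label. The size of the Fzd6 difference thus rests in part on these hearts. Fzd4 had 48.0, 46.9, 58.9 and 50.5 CPM in the TAC hearts, against 63.3, 44.5, 62.3 and 66.4 CPM in the sham hearts. These overlapped, and the difference of -0.25 ± 0.12 on the log2 scale (SE, adjusted p = 0.105) was called only in some settings: it was -0.50 (adjusted p = 0.00102) without the hearts against their sex label, -0.37 (adjusted p = 0.00339) without sham replicate 2 and -0.33 (adjusted p = 0.0437) without TAC replicate 3. Fzd9 had 2.34, 1.92, 1.61 and 1.85 CPM in the TAC hearts, against 0.995, 1.61, 1.39 and 1.53 CPM in the sham hearts, so that the groups touched, and was not called at 0.44 ± 0.27 (SE, adjusted p = 0.219). Fzd5 and Fzd8 were not called either, with means of 5.14 ± 0.767 and 9.13 ± 1.22 CPM in the TAC hearts, against 4.49 ± 0.316 and 9.49 ± 1.96 CPM in the sham hearts (SD, n = 4 each).

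Among the ligands, Wnt9b had 2.79, 2.24, 2.47 and 1.85 CPM in the TAC hearts, against 0.442, 0.804, 0.617 and 0.612 CPM in the sham hearts. Wnt5b had 11.8, 10.02, 10.5 and 12.8 CPM in the TAC hearts, against 6.30, 5.28, 5.39 and 6.33 CPM in the sham hearts. Neither gene's groups overlapped, and the log2 fold change was 1.86 ± 0.31 for Wnt9b (SE, adjusted p = 0.000244), from 16 to 25 counts per TAC heart against 4 to 7 per sham heart, and 0.90 ± 0.14 for Wnt5b (adjusted p = 0.000197). The mean Wnt5b level of the TAC hearts was 115% of that at E13.5, and that of the sham hearts was 59.2%. Wnt2b had 4.46, 4.69, 3.54 and 4.06 CPM in the TAC hearts, against 7.85, 4.71, 6.01 and 7.35 CPM in the sham hearts. The highest TAC heart and the lowest sham heart nearly met, and the log2 fold change was -0.68 ± 0.19 (SE, adjusted p = 0.0108). With the replicate number as a block it was -0.57 and no longer called (adjusted p = 0.101). Wnt5a, with 19.4, 14.6, 18.9 and 22.7 CPM in the TAC hearts, against 18.5, 21.4, 22.8 and 18.7 CPM in the sham hearts, was not called at -0.14 ± 0.13 (SE, adjusted p = 0.403). Wnt11, with 7.58, 5.12, 6.86 and 7.19 CPM in the TAC hearts, against 10.6, 6.66, 8.48 and 7.65 CPM in the sham hearts, was not called at -0.36 ± 0.18 (SE, adjusted p = 0.116). Wnt9a had 14.9, 15.2, 14.9 and 14.7 CPM in the TAC hearts, against 14.9, 11.8, 16.6 and 14.2 CPM in the sham hearts, and was not called.

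Markers of fibroblasts also differed between TAC and sham hearts. In TAC hearts 7 of 10 fibroblast markers were called higher and none lower, and their sum ranged from 2623 to 5158 CPM in TAC hearts and from 1267 to 1408 CPM in sham hearts. The marker levels were uneven, since the collagen gene Col1a1 had a log2 fold change of 1.90 and Postn, a matrix gene of activated fibroblasts, 2.49, while Dcn, a proteoglycan gene of resting fibroblasts, was at -0.02 and was not called. TAC replicate 3 had the highest fibroblast sum, at 5158 CPM, and the highest Sfrp1, at 45.9 CPM, but the lowest Sfrp2 and Dkk3 of the TAC hearts. The macrophage markers, of which 4 of 9 were called higher, summed to 743 to 1056 CPM in TAC hearts and 539 to 603 CPM in sham hearts. At E13.5 all 10 epicardial markers and 7 of the endocardial and cushion markers were called higher in both comparisons. The epicardial sum was 323 to 412 CPM at E13.5, 13.3 to 25.6 CPM at 6 weeks, 15.3 to 29.1 CPM at 16 weeks and 17.9 to 23.7 CPM in sham hearts. Other cell types differed at E13.5 as well. All 8 cardiomyocyte and all 9 macrophage markers were lower in both comparisons, and all erythroid markers tested were higher (6 against unoperated adults and 8 against sham hearts), with a summed erythroid level of 12427 to 47965 CPM at E13.5 and 157 to 284 CPM in sham hearts. Of 7 atrial markers tested, 5 were higher against unoperated adults and 7 against sham hearts, and of 10 fibroblast markers 6 were higher in each comparison, with 4 lower against unoperated adults and 3 against sham hearts. The part of cell composition in the members' differences was not tested.

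Promoter sequence was examined for the members called between TAC and sham hearts, of which 7 were higher and 2 lower. RefSeq windows of 300 bases (250 before and 50 after the start site, build GRCm38.p6) were at hand for 25 of the 37 members, in 28 windows, and for 5 of the 9 members called in TAC. Dkk3, Dkk4, Fzd2, Fzd3, Fzd6, Fzd8, Sfrp1, Sfrp4, Wnt5a, Wnt7b, Wnt8a and Wnt10a had no entry. The words searched, on both strands, were for TCF and LEF factors the word CTTTGAA or its variants CTTTGAT (variant 2), CTTTGTA (variant 3) and CTTTGTT (variant 4), for TEAD factors the word GGAATG, for AP-1 the word TGANTCA and for SP factors the word GGGCGG, and no words of different kinds shared a base. A TCF and LEF word was in 5 of the 28 member windows, 1 each of Dkk1, Fzd7, Wnt3, Wnt5b and Wnt11, and in 16.9% of all 32851 windows. An SP word was in 21 of the 28 member windows (19 of the 25 members) and in 35.7% of all windows. A TEAD word was in 1 of the 28 and in 14.7% of all, and an AP-1 word in 1 of the 28 and in 7.81%. The 250 bases before the start site follow for the 5 TAC members with a window, to show how unlike they are in these words, with matched words in capitals, each on the gene's own strand from 5′ to 3′. They lie at chr11:103749822-103750071 (minus strand) for Wnt9b, chr3:83766071-83766320 (plus strand) for Sfrp2, chr5:4758217-4758466 (minus strand) for Fzd1, chr6:119449387-119449636 (minus strand) for Wnt5b and chr3:104961710-104961959 (minus strand) for Wnt2b, all in GRCm38.p6.
Wnt9b: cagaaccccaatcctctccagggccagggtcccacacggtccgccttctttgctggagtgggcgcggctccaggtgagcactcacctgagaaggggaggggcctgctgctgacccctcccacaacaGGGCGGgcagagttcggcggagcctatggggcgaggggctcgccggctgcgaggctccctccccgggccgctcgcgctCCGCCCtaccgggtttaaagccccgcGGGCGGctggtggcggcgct
Sfrp2: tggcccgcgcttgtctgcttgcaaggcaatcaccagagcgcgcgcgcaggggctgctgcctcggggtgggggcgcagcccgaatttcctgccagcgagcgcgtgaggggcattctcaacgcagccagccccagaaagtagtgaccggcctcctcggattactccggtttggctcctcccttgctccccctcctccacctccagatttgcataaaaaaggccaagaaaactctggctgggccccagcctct
Fzd1: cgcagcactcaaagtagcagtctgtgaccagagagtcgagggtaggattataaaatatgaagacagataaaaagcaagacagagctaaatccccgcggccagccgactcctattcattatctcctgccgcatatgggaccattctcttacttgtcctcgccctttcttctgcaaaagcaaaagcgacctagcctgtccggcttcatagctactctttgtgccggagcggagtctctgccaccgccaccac
Wnt5b: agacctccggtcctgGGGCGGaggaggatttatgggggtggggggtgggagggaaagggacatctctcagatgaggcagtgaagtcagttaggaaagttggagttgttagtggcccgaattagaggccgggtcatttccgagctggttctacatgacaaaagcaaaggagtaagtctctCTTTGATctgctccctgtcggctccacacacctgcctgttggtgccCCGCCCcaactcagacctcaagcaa
Wnt2b: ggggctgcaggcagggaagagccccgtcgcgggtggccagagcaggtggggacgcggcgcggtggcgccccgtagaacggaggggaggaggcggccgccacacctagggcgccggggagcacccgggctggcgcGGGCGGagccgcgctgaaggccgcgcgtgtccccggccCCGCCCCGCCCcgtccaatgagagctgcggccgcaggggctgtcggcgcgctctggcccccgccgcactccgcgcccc

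The stretches of Sfrp2 and Fzd1, both called higher in TAC hearts, held none of the words searched. That of Wnt9b, also called higher, held 3 SP words, and that of Wnt2b, called lower, also held 3. The Wnt5b stretch held 1 TCF and LEF word and 2 SP words. It is 1 of 3 Wnt5b windows, and of the others 1 held the AP-1 word with SP words and 1 the TEAD word, after the start site. Base composition varied as well, with 51.2% G and C in the Fzd1 stretch, 55.6% in that of Wnt5b, 63.6% in that of Sfrp2, 72.0% in that of Wnt9b and 80.8% in that of Wnt2b. The same stretch of the other 2 Wnt5b windows had 53.2% and 75.2%, so the Wnt5b value depends on the window. No word of this search was in the stretches of all 4 members called higher, and a match or its absence is a description of these letters only.

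Around the members, the other genes of the pathway were counted by list, and values given with no unit are log2 fold changes with their SE. The counts are to be read beside the shares of all features called, 44.1% higher and 39.7% lower at E13.5 against unoperated adults, 40.7% and 35.6% against sham hearts, and 19.6% and 18.4% in TAC hearts. Of the pair of genes needed for Wnt secretion, Wls was higher at E13.5 (1.08 ± 0.11 against unoperated adults and 1.35 ± 0.10 against sham hearts), Porcn was not called, and neither was called in TAC hearts. Of 6 co-receptors and alternative receptors, 4 were higher and 1 lower at E13.5 against unoperated adults, and 4 were higher and 2 lower against sham hearts. The Wnt5a receptor Ror2 had 80.8 ± 7.49 CPM at E13.5 (SD, n = 7), against 3.94 ± 1.13 CPM in sham hearts (SD, n = 4). Its change at E13.5 was 4.47 ± 0.10 against unoperated adults and 4.25 ± 0.13 against sham hearts, that of Ptk7, a polarity co-receptor, 4.30 ± 0.09 and 3.90 ± 0.12, and that of Ror1 1.60 ± 0.12 and 2.38 ± 0.13. The co-receptor Lrp5 was lower in both, at -0.75 ± 0.08 and -1.03 ± 0.08, and Lrp6 was lower against sham hearts only, at -0.17 ± 0.06. In TAC hearts 4 of the 6 were also higher and 1 lower: Ror2 had 0.94 ± 0.19 (adjusted p = 0.00127), Ptk7 0.65 ± 0.14, Ror1 0.64 ± 0.14 and Lrp5 0.42 ± 0.07, while Lrp6 had -0.36 ± 0.08. 

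The R-spondins, which amplify Wnt signalling, were counted with their receptors and the ubiquitin ligases they act on. At E13.5, 4 of 5 tested were higher and 1 lower against unoperated adults, and 5 of 6 were higher and 1 lower against sham hearts. Rspo3 had 12.5 ± 1.21 CPM at E13.5 (SD, n = 7), with no count in any TAC or 6-week heart but some counts in the 16-week and sham groups. Rspo1 had 3.72 ± 0.27 against unoperated adults and 3.82 ± 0.26 against sham hearts, Znrf3, a ligase, had 0.78 ± 0.10 against unoperated adults, and Rnf43, its relative, had 3.09 ± 0.49 against sham hearts. Lgr6, an R-spondin receptor, was lower at E13.5, at -1.62 ± 0.18 against unoperated adults and -5.15 ± 0.14 against sham hearts. The size of its difference thus depended strongly on the adult group it was set against, and the reason was not tested. Lgr6 was also the 1 called gene of 3 tested in TAC hearts, at -0.40 ± 0.09 (adjusted p = 0.00299).

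Of the other secreted or surface inhibitors, 4 of 6 tested were higher at E13.5 in each comparison, 2 were lower against unoperated adults and 1 was lower against sham hearts. Those named by size were Apcdd1 (2.08 ± 0.16 and 1.76 ± 0.15), Sost (1.71 ± 0.23 and 2.24 ± 0.22), which binds the Lrp co-receptors, and Notum (1.61 ± 0.23 and 1.51 ± 0.25), an enzyme that removes the lipid of Wnt proteins. Kremen1, a Dkk receptor, was lower in both, at -1.49 ± 0.07 and -1.74 ± 0.07, and Wif1, which binds Wnt proteins, was lower against unoperated adults, at -1.73 ± 0.58. In TAC hearts 2 of 5 tested were higher and none lower. Frzb, a relative of the Sfrp genes, had 18.3 ± 5.10 CPM in TAC hearts and 4.01 ± 1.10 CPM in sham hearts (SD, n = 4 each), a change of 2.12 ± 0.22 (adjusted p = 1.22e-05), and Kremen1 had 0.52 ± 0.07.

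**Figure D5:**
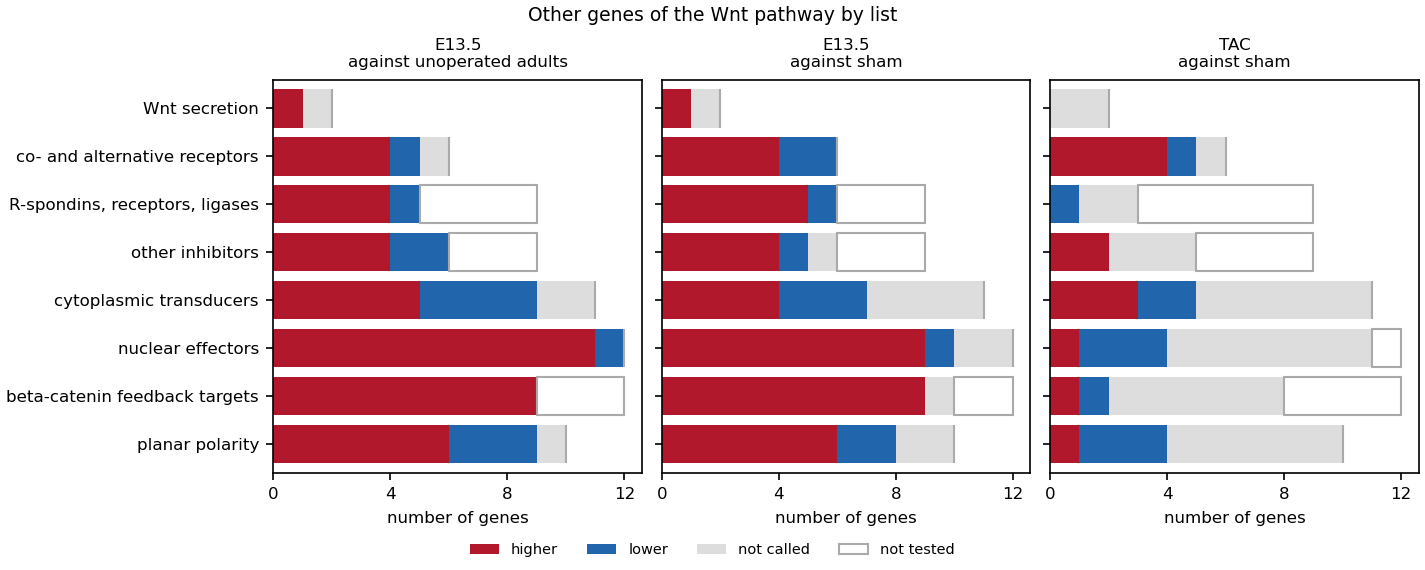
Number of genes of each pathway list called higher, called lower, not called and not tested in 3 comparisons (edgeR, adjusted p under 0.05 over all features). All 9 beta-catenin feedback targets tested are higher at E13.5 against unoperated adults, and in TAC hearts 1 is higher and 1 lower of 8.

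Of 11 cytoplasmic transducers, 5 were higher and 4 lower at E13.5 against unoperated adults, and 4 were higher and 3 lower against sham hearts, shares near those over all features. Beta-catenin itself (Ctnnb1) was called in none of the comparisons, with 588 ± 36.7 CPM at E13.5, 573 ± 47.3 CPM at 6 weeks, 553 ± 18.5 CPM at 16 weeks, 554 ± 30.4 CPM in TAC hearts and 542 ± 17.5 CPM in sham hearts (SD). Of the Dishevelled genes, Dvl2 was higher at E13.5 (1.68 ± 0.09 and 1.65 ± 0.09), Dvl3 was higher against unoperated adults (0.44 ± 0.06) and Dvl1 was lower (-0.95 ± 0.08 and -0.71 ± 0.09). The kinase gene Csnk1e was higher (0.77 ± 0.06 and 0.61 ± 0.07), as was Csnk1a1 against sham hearts (0.44 ± 0.13), while Apc2 (-0.98 ± 0.17 and -0.87 ± 0.24) and Gsk3a (-0.31 ± 0.06 and -0.55 ± 0.06) were lower. In TAC hearts Apc2 (0.89 ± 0.09), Dvl1 (0.42 ± 0.07) and Dvl3 (0.23 ± 0.08) were higher, and Csnk1e (-0.25 ± 0.07) and Gsk3b (-0.23 ± 0.07) were lower, of 11 tested.

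Of 12 nuclear effectors, 11 were higher and 1 lower at E13.5 against unoperated adults, and 9 were higher and 1 lower against sham hearts. Lef1 (3.76 ± 0.21 and 4.94 ± 0.20) and Tcf7 (2.37 ± 0.32 and 2.34 ± 0.39), both DNA-binding partners of beta-catenin, were the largest, followed by Bcl9 against unoperated adults (1.16 ± 0.07) and Pygo2 against sham hearts (1.13 ± 0.07), and Pygo1 was lower (-1.23 ± 0.10 and -1.04 ± 0.10). In TAC hearts 1 of 11 tested was higher, the co-repressor gene Tle3 (0.73 ± 0.20), and 3 were lower: Bcl9 (-0.67 ± 0.08), Pygo1 (-0.44 ± 0.11) and Tcf7l2 (-0.29 ± 0.09). Of 12 beta-catenin feedback targets, a list that shares genes such as Lef1 and Tcf7 with the others, all 9 tested were higher at E13.5 against unoperated adults and 9 of 10 against sham hearts. Among them Nkd1, an inhibitor of Dishevelled, had 3.15 ± 0.14 and 3.05 ± 0.16, Myc had 2.96 ± 0.13 and 1.88 ± 0.35, and Nkd2 had 1.09 ± 0.16 and 1.33 ± 0.16.

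In TAC hearts 1 of 8 tested feedback targets was higher and 1 lower, and their median was 0.03. Nkd2 had 10.9 ± 2.64 CPM in TAC hearts and 3.08 ± 0.591 CPM in sham hearts (SD, n = 4 each), a change of 1.78 ± 0.20 (adjusted p = 9.40e-06). Axin2, a widely used reporter gene of the pathway, had 7.23 ± 1.67 CPM in TAC hearts and 10.9 ± 1.97 CPM in sham hearts (SD, n = 4 each), a change of -0.63 ± 0.18 (adjusted p = 0.0115). Of 10 planar polarity genes, 6 were higher and 3 lower at E13.5 against unoperated adults, and 6 were higher and 2 lower against sham hearts. Vangl2 was the largest (3.33 ± 0.11 and 3.09 ± 0.09), with Celsr1 (0.86 ± 0.09 and 1.19 ± 0.07), Prickle2 against unoperated adults (1.10 ± 0.12) and Daam2 against sham hearts (0.92 ± 0.09). Those lower were Prickle3 (-1.60 ± 0.11 and -1.87 ± 0.10), Daam1 (-0.22 ± 0.06 and -0.23 ± 0.08) and, against unoperated adults, Celsr3 (-1.47 ± 0.52). In TAC hearts Celsr1 was higher (0.49 ± 0.08), and Celsr3 (-1.13 ± 0.17), Celsr2 (-0.65 ± 0.09) and Prickle1 (-0.30 ± 0.09) were lower. Between 16 and 6 weeks no gene of any of these lists was called by edgeR.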

How the data were processed

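Polyadenylated RNA from 27 mouse hearts was sequenced single-end and without strand. Reads were aligned with Bowtie and TopHat 1.3.0 to mm9 (NCBIM37) and counted with HTSeq, tools named per the submitters' processing notes; the counting mode is not given in the sources used here. The authors deposited raw read counts per gene, and the 27 per-library files equalled the series table. For 6 members, exonic bases shared with another feature limit what a count represents.

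From the deposited counts, each comparison was fitted on its own groups with edgeR 4.0.16 (R 4.3.3; filterByExpr with a minimum count of 10 and total of 15, TMM scaling, quasi-likelihood test, Benjamini-Hochberg adjustment over all features, calls at an adjusted p under 0.05). The fit was also run on simulated data in which a small part of the features was raised in the first group of each comparison. In the E13.5 comparisons 83.8% and 76.3% of features were called, so the simulation does not test the scaling there. CPM were scaled with TMM over all 27 libraries, and levels between genes are CPM per kilobase of exon outside other features. Counting intervals are exact at 95% and cover counting error only. All members were described; per-heart values are given for members called in a comparison with a group mean of at least 1 CPM, and of each pathway list up to 3 called genes per direction with the largest change. The members and lists were chosen with earlier results of these data known. Groups come from titles: the age field of the E13.5 samples steps up from sample to sample while every title reads E13.5. Alternatives were RLE scaling, other filters, DESeq2 1.42.0, one fit of 27 libraries, single adult ages as reference, thinning, libraries left out and a replicate block. Same-numbered libraries had correlations of -0.06 to 0.13 over 25 pairs, so numbers were not treated as pairs. Promoters came from RefSeq (GRCm38.p6).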

Additional observations from a re-analysis of the deposited data

Results flagged for a closer look

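Within a group, 10 of 98 gene-group pairs examined had a heart far from the others by Dixon's test, which flags about 1 in 20 groups by chance. 6-week replicate 2 was high in 3 genes: Dkk3 at 27.7 CPM (others 3.66 to 8.62), Sfrp5 at 11.1 CPM (others 1.98 to 3.23) and Wnt5a at 42.4 CPM (others 14.2 to 21.8). Among the other 6-week hearts, Fzd4 was 66.3 CPM in replicate 3 (others 41.2 to 48.2) and Fzd8 was 18.8 CPM in replicate 6 (others 9.13 to 12.5). In 16-week replicate 3, Fzd1 was 23.9 CPM (others 15.8 to 18.3) and Fzd9 was 6.96 CPM (others 3.25 to 4.41). Dkk2 was 16.2 CPM in E13.5 replicate 3 (others 2.86 to 7.11). Fzd7 was 24.3 CPM in TAC replicate 4, the heart labelled female (others 19.6 to 20.3). Fzd3 was 2.004 CPM in sham replicate 3 (others 0.689 to 0.885).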

How the results depend on the processing

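The numbers of members called stayed within 1.5 times under the alternatives run, except in 1 case. Under the replicate block, 7 members were higher but only 1 lower in TAC than in sham hearts, because Wnt2b had -0.57 (edgeR adjusted p = 0.101); the numbers do not pair the samples. That block left 18 higher and 3 lower at E13.5 against unoperated adults, 20 and 3 against sham hearts, and 0 between 16 and 6 weeks. With each library left out in turn, 18 to 20 members were higher and 3 lower at E13.5 against unoperated adults, 20 higher and 3 lower against sham hearts, none called between 16 and 6 weeks, and 7 higher and 2 to 3 lower in TAC hearts. Fzd5 changed sign without a call. At E13.5 against unoperated adults it had 0.013 with RLE scaling, 0.15 with no filter, 0.012 with DESeq2, 0.0037 without libraries against their sex label, 0.068 thinned, 0.19 against 6 weeks alone and -0.073 to 0.040 leaving out one library. Against sham hearts it had 0.023 with no filter, 0.045 in one fit and 0.012 under the replicate block. The cause was not tested. Over all features, TAC calls were 1926 higher and 1749 lower under the replicate block (2847 and 2681 without it). Between 16 and 6 weeks the 137 higher and 124 lower calls came to 230 and 190 in one fit, 219 and 289 with no filter, 74 and 64 without libraries against their sex label, and 51 to 207 and 56 to 165 leaving out one library. With no filter, 12197 features were higher at E13.5 against unoperated adults (5630 with it). Unoperated libraries were the shallowest, so genes under about 1 CPM are poorly measured there. Per kilobase of all exonic bases the Sfrp sum was 104 at E13.5, 8.56 at 16 weeks, 14.5 in TAC hearts and 5.47 in sham hearts, lower than with unshared bases because Sfrp1 and Sfrp2 share exonic bases with other features.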
